A study of Mus musculus with 17 samples.

Results

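The serpin genes of mouse liver were examined in RNA-seq data from mice that lack NgBR in hepatocytes. A gene was counted as a member when its symbol begins with Serpin and has no -ps suffix, the mark of a pseudogene. Its mean in 1 or more groups also had to be at least 0.5 CPM, the usual count per scaled library size. Serpina3h and Serpinb10 are annotated as pseudogenes without that suffix, and neither was a member. The members were thus chosen by their level. This gave 32 genes of the 46 listed serpin genes without that suffix and of 24352 genes listed in all. In the table of high-fat diet (HFD) samples 29 genes passed, and in the table of Western diet (WD) samples 32 passed. The 3 that passed under WD alone were Serpini1, Serpina3i and Serpinb9f, and they did so through N-LKO liver or tumor: their highest group means were 1.52, 0.817 and 0.551 CPM, all in tumor. Their WT WD means lay under the minimum, as did the N-LKO WD liver mean of Serpinb9f. Just below the minimum stood Serpina3h at 0.377 CPM under WD and Serpini1 and Serpina9 at 0.337 and 0.336 CPM under HFD. A gene near the minimum can pass only through the group in which it is high.

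The mice were male, on a C57BL6 background, and were fed chow before the diets. Liver came from WT mice on HFD (n = 4), liver-specific NgBR knockout mice (N-LKO) on HFD (n = 4), WT mice on WD (n = 3) and N-LKO mice on WD (n = 3), and tumor from N-LKO mice on WD (n = 3), each after 16 weeks of diet, and no chow-fed group was analysed. In N-LKO mice, floxed NgBR alleles (gene Nus1) were deleted by an albumin-driven Cre, which acts in hepatocytes, so other liver cells keep the gene. NgBR is a subunit of the cis-prenyltransferase that makes dolichol, the lipid on which the sugar trees of glycoproteins are built. The labels do not say which tumor and which liver came from the same mouse, and they separate replicates by number only, so that the p-values measure the spread between these samples.

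Serpins share one fold in which an exposed reactive-centre loop serves as bait for a protease. Once the protease cuts the loop, the serpin snaps into a new shape and traps the enzyme in a dead complex, so each molecule works once. Hepatocytes secrete most serpins of plasma as N-glycosylated proteins, among them the inhibitors of neutrophil elastase, thrombin, plasmin and the first complement proteases, and also relatives that carry hormones and inhibit nothing. Clade B serpins stay inside cells, where they guard against proteases that leak from granules or lysosomes. Serpinh1 is a chaperone of collagen in the endoplasmic reticulum.

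Total counts per library were 9096110 to 12215784 under HFD and 15494731 to 20200618 under WD. Nus1 was lower in N-LKO than in WT liver on HFD (log2 fold change -1.33 ± 0.10 SE, adjusted p = 0.000194) and in tumor than in WT liver (log2 fold change -1.40 ± 0.16 SE, adjusted p = 0.00433), and its N-LKO and WT libraries did not overlap under WD either (log2 fold change -1.02 ± 0.16 SE, adjusted p = 0.151). Of 7 hepatocyte markers, the 6 that were used were above 0 in every library, the lowest at 132 CPM (Ass1). One library stood apart. WT WD replicate 2 had the lowest scaling factor (0.806) and held the highest or the lowest value of its group for 32 of 32 members, the highest for 17 and the lowest for 15. It moved many of the log2 fold changes against WT WD liver, and values without it are given for several of them. In bulk tissue, fewer cells of a type and less RNA per cell cannot be told apart.

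Few serpins passed the test within the livers and more did between tumor and WT liver, as was so for all genes. Under HFD, 2 of 29 members were lower in N-LKO liver, Serpine2 and Serpina3k, and none was higher, against 4.84% of all 13460 genes tested that passed in either direction (2.56% higher and 2.29% lower). Without adjustment 8 members had p under 0.05, 1 higher and 7 lower, against 22.7% of all genes (11.2% higher and 11.5% lower). Under WD, 0 of 32 members passed between N-LKO and WT liver in edgeR, as did 0% of 17829 genes. The lowest adjusted p of any gene there was 0.150, so this 0 sets the serpins apart from no other genes. At an unadjusted p under 0.05 there were 11 members, 4 higher and 7 lower, against 12.4% of all genes (7.1% higher and 5.31% lower), and DESeq2 called 1 member and limma-voom 0. The unadjusted count was 5 without WT WD replicate 2. Leaving out each other WD library gave 6 to 15. Between tumor and N-LKO liver, 0 of 32 members passed in edgeR against 0.499% of all genes (0.437% higher and 0.0617% lower). Unadjusted there were 6, 5 higher and 1 lower, against 18.3% of all genes (10.1% higher and 8.19% lower), and DESeq2 called 3 and limma-voom 0. Between tumor and WT liver, 7 of 32 passed, 5 higher and 2 lower, against 14.9% of all genes (8.08% higher and 6.8% lower). Of the 29 members that reached the minimum in every WD group, 4 were higher and 2 lower. Both tumor comparisons share the tumor libraries, and both comparisons with WT liver share the WT WD libraries. Groups that did not overlap were found for 3 of 29 members under HFD (14.8% of all genes) and for 16 of 32 between N-LKO and WT liver under WD (27.9%). For tumor this held for 10 of 32 members against N-LKO liver (23.1%) and for 13 of 32 against WT liver (34.1%). The 32 include Serpini1, Serpina3i and Serpinb9f, which are members through N-LKO liver or tumor and not through WT liver. The median log2 fold change of the members was -0.12 under HFD (all genes -0.01), -0.42 between N-LKO and WT liver under WD (all genes 0.01), 0.17 between tumor and N-LKO liver (all genes 0.02) and 0.01 between tumor and WT liver (all genes 0.04).

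**Figure D1:**
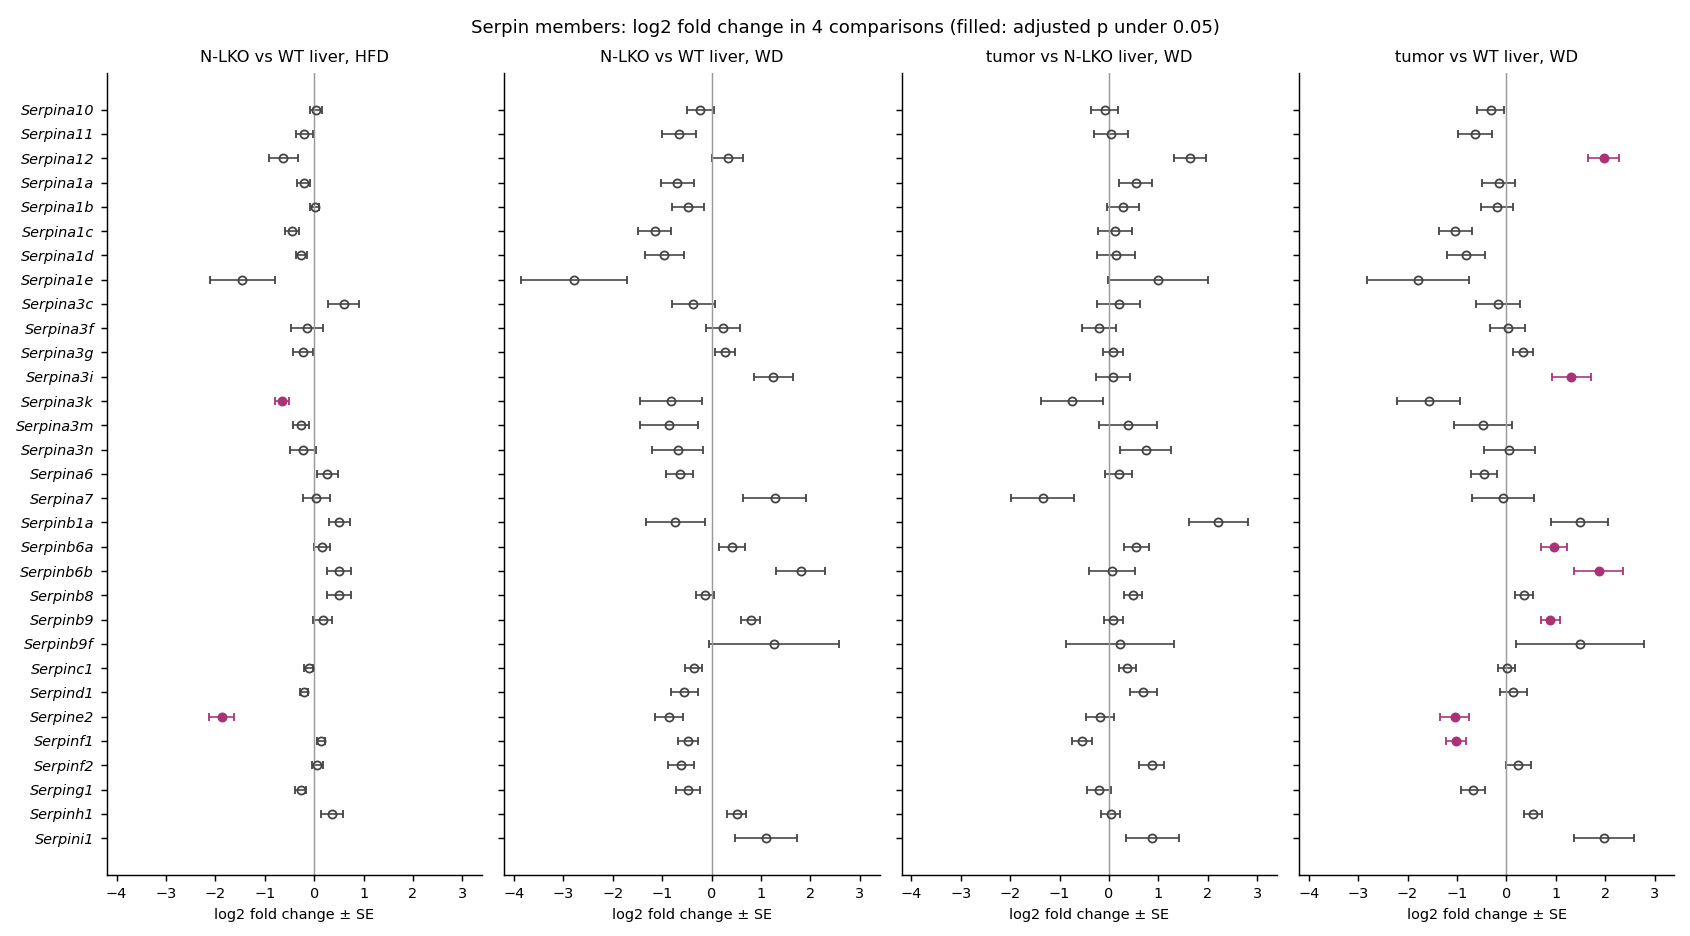
Log2 fold change (x axis) with its SE of the members (rows; 1 is not shown) in the 4 comparisons (panels); filled points mark an adjusted p under 0.05. Filled points are Serpine2 (-1.87) and Serpina3k (-0.66) in the HFD panel, none in the panels of N-LKO against WT liver under WD and of tumor against N-LKO liver and 7 in the panel of tumor against WT liver.

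By subfamily, the log2 fold changes of tumor against WT liver had a median of 1.22 over the clade B genes, with 6 of 6 above 0, and of -0.81 over the Serpina1 genes, with 5 of 5 below 0. Over the Serpina3 genes the median was 0.02 (4 of 7 above 0), over the other clade A genes -0.32 (1 of 5) and over clades C to I 0.06 (6 of 9). Serpina3i, among the Serpina3 genes, and Serpini1, in clades C to I, are members through N-LKO liver and tumor alone. Of the clade B genes, Serpinb9f is a member through tumor alone, and without it 5 of 5 were above 0 with a median of 0.97. Without WT WD replicate 2, 6 of 6 clade B genes, Serpinb9f included, were above 0 with a median of 0.86, while 3 of 5 Serpina1 genes were below 0 with a median of -0.06. Between tumor and N-LKO liver, 5 of 5 Serpina1 genes and 6 of 6 clade B genes were above 0, with medians of 0.29 and 0.35. Without Serpinb9f, 5 of 5 clade B genes were above 0 with a median of 0.49. In N-LKO against WT liver under WD, 5 of 5 Serpina1 genes were below 0 with a median of -0.96, or -0.38 without WT WD replicate 2. Of the clade B genes 4 of 6 were above 0 with a median of 0.61, or 3 of 5 with a median of 0.41 without Serpinb9f. In edgeR no gene of either subfamily passed in that comparison, and DESeq2 called Serpinb6b (adjusted p = 0.0360). Under HFD the medians were -0.26 for the Serpina1 genes and 0.50 for 5 clade B genes. The subset medians are descriptions and were not tested.

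**Figure D2:**
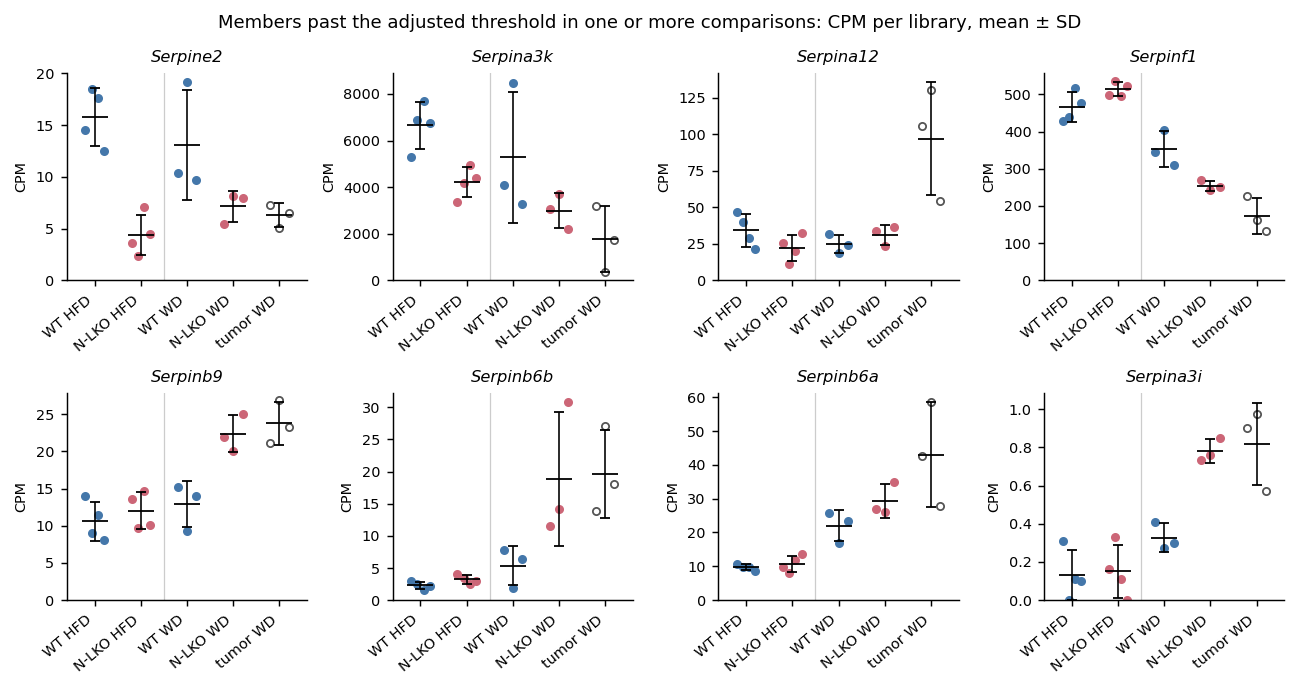
CPM per library (points), with mean and SD (bars), of the 8 members past the adjusted threshold in 1 or more comparisons; blue is WT liver, red N-LKO liver and open circles tumor, and the vertical line parts the HFD from the WD table. The 4 WT HFD points of Serpine2 lie at 12.5 to 18.5 CPM above all N-LKO HFD points (2.39 to 7.06), and the tumor points of Serpina12 lie at 54.5 to 130.3 CPM, above both WD liver groups.

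Alpha-1-antitrypsin, the main plasma inhibitor of neutrophil elastase, is encoded in mice by a row of near-identical genes on chromosome 12. The 5 members Serpina1a to Serpina1e lie on the minus strand between positions 103728156 and 103958975 (GRCm38), with main transcripts of 5 or 6 exons. Their coding sequences are 96.3% to 98.5% identical in pairs. The 75 bases in which they differ most lie near the 3′ end of the coding sequence, where serpins encode the reactive-centre loop. In this stretch 19 positions vary, and they are set in capitals in the 5 sequences that follow, which are read from GENCODE transcripts on the minus strand and show where a read can tell the genes apart.
Serpina1a, chr12:103853744-103853818: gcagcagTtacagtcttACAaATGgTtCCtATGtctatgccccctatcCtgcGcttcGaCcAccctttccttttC
Serpina1b, chr12:103728311-103728385: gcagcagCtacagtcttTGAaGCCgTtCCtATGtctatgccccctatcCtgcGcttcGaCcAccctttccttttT
Serpina1c, chr12:103895081-103895155: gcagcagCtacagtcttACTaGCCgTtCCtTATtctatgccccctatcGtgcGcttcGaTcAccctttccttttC
Serpina1d, chr12:103763749-103763823: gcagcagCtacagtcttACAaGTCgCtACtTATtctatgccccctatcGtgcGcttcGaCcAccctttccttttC
Serpina1e, chr12:103947087-103947161: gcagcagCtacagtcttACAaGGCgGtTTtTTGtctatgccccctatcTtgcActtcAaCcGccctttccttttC

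Of all 75-base windows of the main transcript, 73.6% for Serpina1c, 57.5% for Serpina1a, 37.1% for Serpina1d, 25.1% for Serpina1b and 20.3% for Serpina1e occur in a transcript of another gene. With 45-base windows the shares were 80.6%, 69.5%, 53.7%, 39.5% and 40.1%. The annotated span of Serpina1b also contains Serpina1d on the same strand. The estimated counts divide shared reads, so the sum over the 5 genes is less open to that division than a single gene, and both are given.

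**Figure D3:**
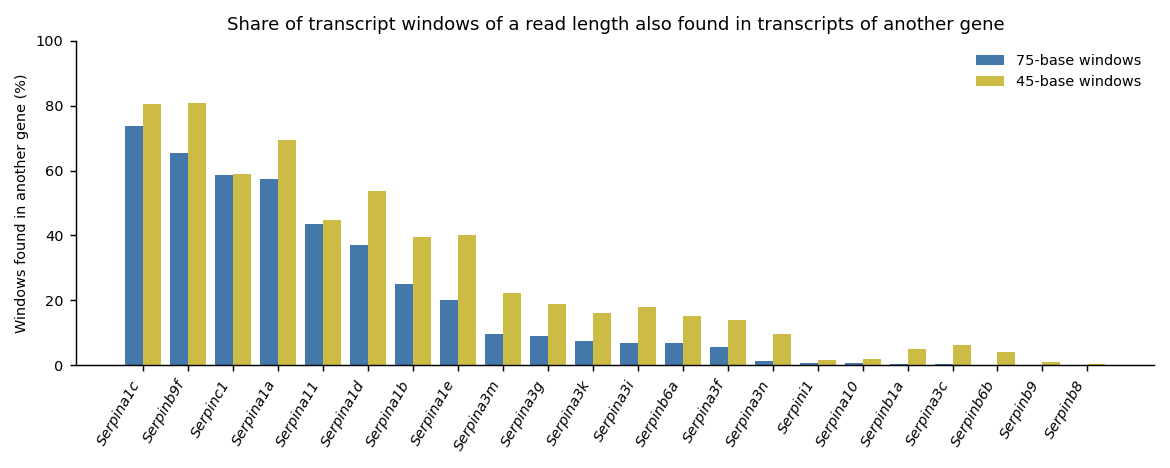
Share of the windows of a main transcript (y axis, percent) that also occur in a transcript of another gene, for windows of 75 (blue) and 45 (yellow) bases; members with a share of 0 at both lengths are left out. Serpina1c has the highest share at 75 bases, 73.6%, and the Serpina3 genes lie under 10% at that length.

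The log2 fold change of the Serpina1 sum between N-LKO and WT liver was below 0 on both diets, and neither passed the test. Under HFD it was 16955, 21774, 22182 and 21827 CPM in the WT livers and 13799.8, 18509, 16510.4 and 17679 CPM in those of N-LKO mice. The groups overlapped, through WT replicate 1 (log2 fold change -0.32 ± 0.13 SE, adjusted p = 0.181). Under WD it was 9533, 17568 and 8540.2 CPM in WT liver, 6847, 5940.2 and 6916 CPM in N-LKO liver and 8474, 4877 and 11194 CPM in tumor. All 3 WT libraries lay above all N-LKO libraries, and tumor spanned both (log2 fold change -0.85 ± 0.35 SE, adjusted p = 0.385 for N-LKO against WT liver). WT replicate 2 was the highest of its group. Without it the log2 fold change was -0.46, with adjusted p = 0.912. Tumor differed from N-LKO liver by 0.32 and from WT liver by -0.54 on the log2 scale (adjusted p = 0.669 and 0.310).

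Among the single genes, Serpina1c carried the lowest adjusted p of the Serpina1 genes under either diet. It was 4973, 5537, 6518 and 7202 CPM in WT HFD liver and 3633, 4688, 4437 and 4979 CPM in N-LKO HFD liver, overlapping through WT replicate 1 and N-LKO replicate 4 (log2 fold change -0.45 ± 0.14 SE, adjusted p = 0.0841). DESeq2 and the fit with a replicate block called it. In the WD samples it was 2362, 4778 and 1862 CPM in WT liver, 1444, 1439 and 1158 CPM in N-LKO liver and 1317, 1157 and 1927 CPM in tumor. Here WT and N-LKO liver did not overlap (log2 fold change -1.15 ± 0.34 SE, adjusted p = 0.353), while without WT replicate 2 the log2 fold change was -0.65. Serpina1c is also the gene with the largest share of windows found elsewhere. Serpina1b differed least: its log2 fold change was 0.01 under HFD and -0.47 under WD. Serpina1a and Serpina1d lay between them, at -0.22 and -0.26 under HFD and -0.70 and -0.96 under WD.

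Serpina1e varied widely between mice of a group. In WT HFD liver it was 902, 3562, 2501 and 713 CPM and in N-LKO HFD liver 179.8, 1458, 252 and 915 CPM. On WD it stood at 145, 2408 and 174.7 CPM in WT liver, 90.9, 237 and 66.99 CPM in N-LKO liver and 76.7, 352 and 358 CPM in tumor. The groups overlapped on both diets. Its coefficient of variation within groups was 61.3% to 143%, against 4.86% to 52.0% for Serpina1a to Serpina1d. The highest, in WT WD liver, came from replicate 2, and the other 2 WT WD libraries gave 12.999%, against 2.73% to 16.7% for Serpina1a to Serpina1d. No comparison of Serpina1e passed in edgeR (adjusted p = 0.209 under HFD and 0.375 between N-LKO and WT liver under WD). Of the counts of the 5 genes, Serpina1e took 1.30% to 16.4% in an HFD library and 0.905% to 13.7% in a WD library, at most 7.21% without WT WD replicate 2. Per kilobase of main transcript, its mean in WT HFD liver was 1219 CPM, the lowest of the 5 genes, against 2535 CPM for Serpina1b, the next, and 4451 CPM for Serpina1c, the highest.

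The sequence before the start site of Serpina1e is close to that of Serpina1b, a gene with a coefficient of variation of 5.33% to 44.01%. Closeness is shared by the other Serpina1 genes. Over whole aligned promoter windows their pairs are 91.7% to 98.4% identical, Serpina1b with Serpina1e being the closest pair. Over the longest aligned stretch without a gap, 131 bases of RefSeq promoter windows (GRCm38.p6, minus strand), the pair differ at 3 bases, set in capitals. The stretch lies 131 to 1 bases before the Serpina1b start and 183 to 53 bases before the annotated Serpina1e start.
Serpina1b, chr12:103738190-103738320: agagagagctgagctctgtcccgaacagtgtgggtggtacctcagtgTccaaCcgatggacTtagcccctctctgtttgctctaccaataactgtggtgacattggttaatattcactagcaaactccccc
Serpina1e, chr12:103956950-103957080: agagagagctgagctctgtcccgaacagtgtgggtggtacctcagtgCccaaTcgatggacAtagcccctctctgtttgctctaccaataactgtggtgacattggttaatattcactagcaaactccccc

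**Figure D4:**
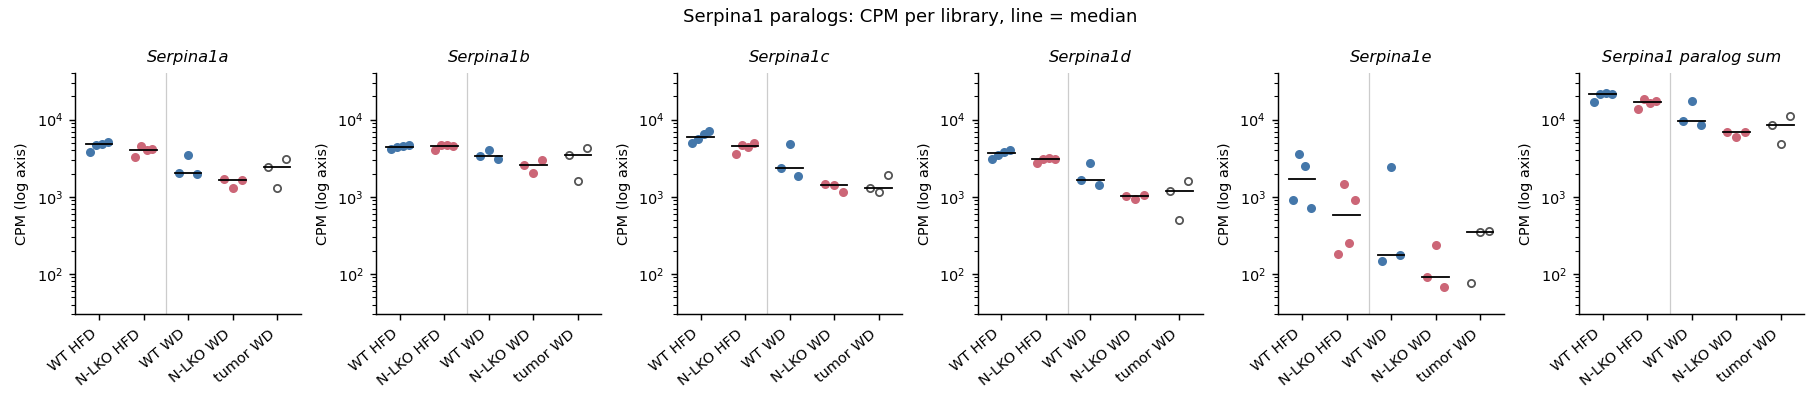
CPM per library (points; y axis logarithmic) with the group median (line) of Serpina1a to Serpina1e and of their sum, colours as for the members past the threshold. Serpina1e spans 66.99 to 3562 CPM over all libraries, and the high WT WD point in each panel is replicate 2.

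The Serpina3 genes, relatives of human alpha-1-antichymotrypsin, have expanded in mice beside the Serpina1 genes on chromosome 12. Serpina3k, known as a kallikrein-binding protein of plasma, took 56.5% to 90.4% of their counts. It has 5 exons on the plus strand (chr12:104338486-104346144), and the annotated span of Serpina3m, on the same strand, starts at the same base and contains it. Coding identity was 91.7% for Serpina3k with Serpina3m, 82.9% for Serpina3k with Serpina3n and 85.2% for Serpina3m with Serpina3n. Of the 75-base windows of Serpina3k, 7.36% occur in Serpina3m. The stretch in which the 3 most abundant genes differ most again lies near the 3′ end of the coding sequence, plus strand, with 29 varying positions in capitals. It is shown because it separates the reads of a gene that changed from those of its neighbours.
Serpina3k, chr12:104345334-104345408: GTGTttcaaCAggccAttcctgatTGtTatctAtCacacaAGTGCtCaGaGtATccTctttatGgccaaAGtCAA
Serpina3m, chr12:104393840-104393914: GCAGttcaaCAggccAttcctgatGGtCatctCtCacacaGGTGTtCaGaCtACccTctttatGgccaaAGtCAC
Serpina3n, chr12:104413519-104413593: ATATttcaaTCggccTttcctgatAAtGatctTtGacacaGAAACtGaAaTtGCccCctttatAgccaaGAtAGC

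Serpina3k was lower in N-LKO liver under HFD. It was 5279, 6894, 7678 and 6748 CPM in the WT livers and 3374, 4166, 4946 and 4381 CPM in those of N-LKO mice, and the groups did not overlap (1.58-fold lower, log2 fold change -0.66 ± 0.14 SE, adjusted p = 0.0279). The call was lost, with adjusted p-values of 0.0551 to 0.0765, when WT replicate 2, 3 or 4 or N-LKO replicate 1 or 4 was left out. The WD values were 4096, 8481 and 3266 CPM in WT liver, 3048, 3702 and 2222 CPM in N-LKO liver and 3206, 371 and 1742 CPM in tumor. N-LKO liver overlapped WT liver (log2 fold change -0.82 ± 0.62 SE, adjusted p = 0.580), with a log2 fold change of -0.30 without WT replicate 2, and all tumor libraries lay below all WT libraries, without passing the test (log2 fold change -1.57 ± 0.63 SE, adjusted p = 0.116). Tumor replicate 2 had the lowest value of the 9 WD libraries.

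The Serpina3 sum followed its main gene under HFD, at 5937, 7648, 8493 and 7882 CPM in the WT livers and 3924, 4703, 6003 and 5089 CPM in those of N-LKO mice (log2 fold change -0.60 ± 0.15 SE, adjusted p = 0.0419). N-LKO replicate 3 reached above WT replicate 1. The call was lost with an offset for transcript length and GC content (adjusted p = 0.0616) and in 6 of 8 fits that left out a library (0.0675 to 0.102: WT replicates 2, 3 and 4 and N-LKO replicates 1, 2 and 4). Under WD the sum was 4754, 9957 and 3891 CPM in WT liver, 3756, 4141 and 2776 CPM in N-LKO liver and 4394, 656 and 2910.4 CPM in tumor. The groups overlapped in each WD comparison, with log2 fold changes of -0.80, -0.42 and -1.22 for N-LKO against WT liver, tumor against N-LKO liver and tumor against WT liver. Without WT WD replicate 2 the first was -0.28, and without tumor replicate 2 the second was 0.03. Serpina3n, the acute phase member of the group, was at 345 to 789 CPM in HFD livers and 223 to 1129 CPM in WD samples and passed in no comparison, nor did Serpina3m, at 176.1 to 339 CPM and 40.2 to 332 CPM.

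Smaller Serpina3 genes were at low levels. Serpina3g, an intracellular inhibitor of cathepsins, was at 3.47 to 6.24 CPM in HFD livers and 9.76 to 20.4 CPM in WD samples. Serpina3i was 0.411, 0.271 and 0.298 CPM in WT WD liver, 0.733, 0.759 and 0.850 CPM in N-LKO WD liver and 0.904, 0.976 and 0.572 CPM in tumor. It passed between tumor and WT liver (log2 fold change 1.32 ± 0.39 SE, adjusted p = 0.0492), but it is a member only through N-LKO liver and tumor. The call was lost in 14 of 17 alternatives (adjusted p up to 0.153), among them leaving out any WD library except tumor replicate 3. Serpina3c and Serpina3f, at 0.488 to 7.63 CPM, passed in no comparison.

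The plasma inhibitors of clotting, fibrinolysis and complement passed in no comparison in edgeR, while DESeq2 called Serpinf2 between tumor and N-LKO liver and Serping1 between tumor and WT liver. Serpinc1, antithrombin, was 1203, 1272, 1287 and 1318 CPM in the WT livers on HFD and 1088, 1206, 1169 and 1225 CPM in those of N-LKO mice (log2 fold change -0.12 ± 0.08 SE, adjusted p = 0.442), and these overlapped. Under WD it was 1036, 1315 and 1043 CPM in WT liver, 899.97, 821 and 912 CPM in N-LKO liver and 991, 1174 and 1235 CPM in tumor. Its N-LKO libraries lay below all WT and all tumor libraries, with a log2 fold change of -0.37 against WT liver (adjusted p = 0.410) and of 0.37 for tumor against N-LKO liver. Of its windows, 58.6% at 75 bases are shared with Zbtb37, whose annotated transcripts overlap it.

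Serpind1, heparin cofactor II, a thrombin inhibitor, was 438, 414, 398 and 464 CPM in the WT livers on HFD and 345, 365, 389 and 389 CPM in those of N-LKO mice. These groups did not overlap (log2 fold change -0.20 ± 0.08 SE, adjusted p = 0.172). In the WD samples it was 348, 375 and 307 CPM in WT liver, 294, 147 and 260.4 CPM in N-LKO liver and 318, 309.9 and 507 CPM in tumor. N-LKO liver was again the lowest of the 3 groups without overlap (adjusted p = 0.434 against WT liver and 0.218 for tumor against N-LKO liver).

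Serpinf2, alpha-2-antiplasmin, the fast inhibitor of plasmin, was 344, 557 and 333 CPM in WT WD liver, 299, 209 and 294 CPM in N-LKO WD liver and 356, 516 and 584 CPM in tumor. N-LKO liver lay below both other groups, which overlapped each other. The log2 fold change was -0.62 for N-LKO against WT liver (adjusted p = 0.386) and 0.86 ± 0.26 SE for tumor against N-LKO liver (adjusted p = 0.133, 0.0334 in DESeq2 and 0.0304 without tumor replicate 1). In HFD livers it was 387, 369, 487 and 455 CPM in the WT livers and 380.2, 464, 467 and 459.6 CPM in those of N-LKO mice, with overlap.

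Serping1, the C1 inhibitor, restrains C1r, C1s and plasma kallikrein. It was 570.2, 700.5, 674 and 694 CPM in the WT livers on HFD and 440.2, 566, 610.5 and 570.2 CPM in those of N-LKO mice, with overlap (log2 fold change -0.27 ± 0.11 SE, adjusted p = 0.182). On WD it stood at 522, 921 and 446 CPM in WT liver, 462, 427 and 466 CPM in N-LKO liver and 409, 357 and 408 CPM in tumor. All tumor libraries were below all libraries of both liver groups, with an adjusted p of 0.0849 against WT liver. Serpina10, the inhibitor of factor Xa that works with protein Z, was 158, 199, 207 and 194 CPM in the WT livers on HFD and 166, 180.4, 241 and 191 CPM in those of N-LKO mice, and 181, 311 and 166 CPM in WT WD liver, 211, 177 and 174 CPM in N-LKO WD liver and 240.2, 137 and 151.5 CPM in tumor. All of these groups overlapped.

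**Figure D5:**
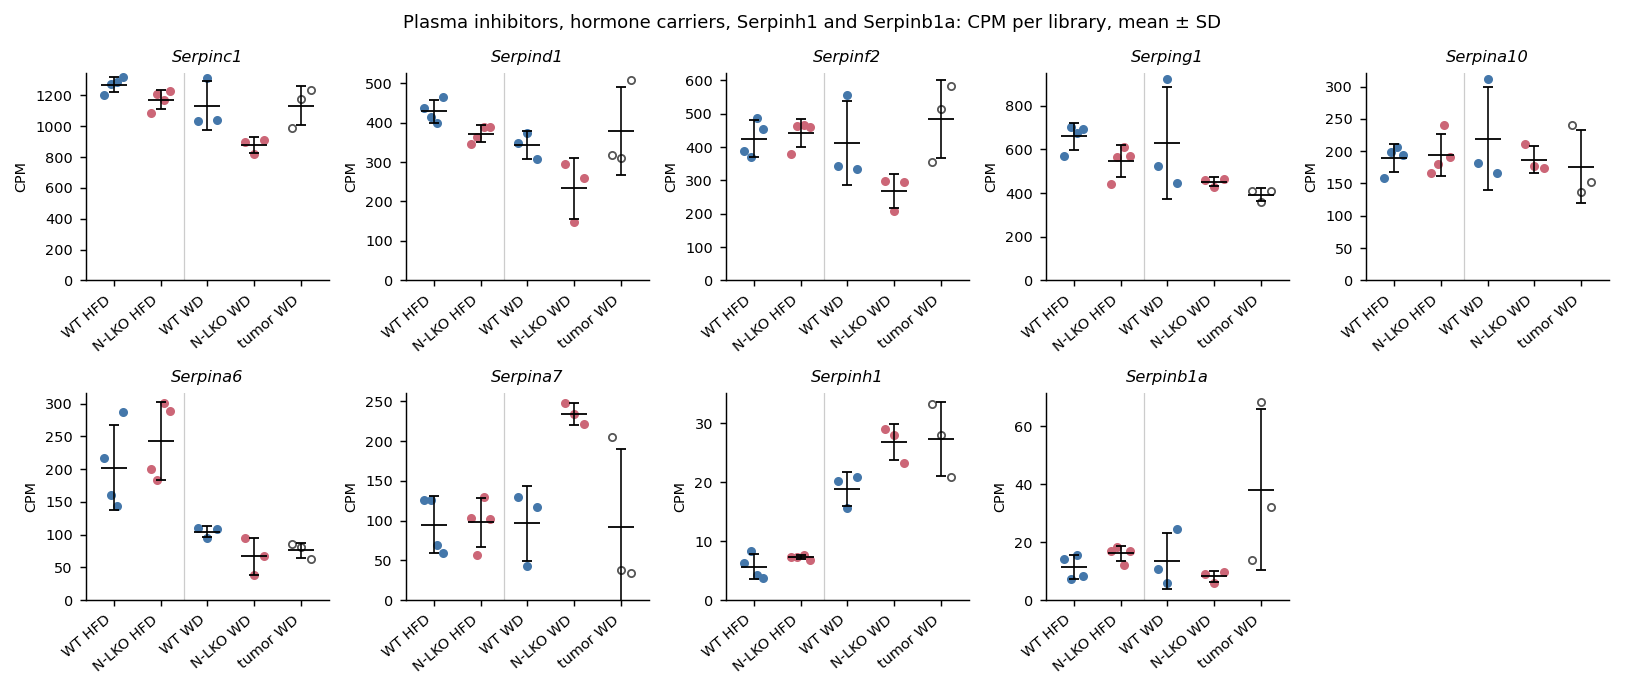
CPM per library (points), with mean and SD (bars), of plasma inhibitors, hormone carriers, Serpinh1 and Serpinb1a, in the 5 groups; the vertical line parts the HFD from the WD table. For Serpinc1, Serpind1 and Serpinf2 the N-LKO WD points lie below the points of the other WD groups, and for Serpina7 they lie above them, at 221 to 248 CPM.

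The hormone carriers, which share the serpin fold but inhibit no protease, differed in direction. Serpina6, corticosteroid-binding globulin, was 109.7, 95.2 and 109 CPM in WT WD liver, 94.6, 38.3 and 67.7 CPM in N-LKO WD liver and 85.2, 80.5 and 63.1 CPM in tumor. Neither N-LKO liver nor tumor overlapped WT liver, which was the highest group (log2 fold change -0.65 ± 0.27 SE, adjusted p = 0.386 for N-LKO and log2 fold change -0.46 ± 0.27 SE, adjusted p = 0.270 for tumor against WT liver). Under HFD it was 218, 159.9, 144 and 287 CPM in the WT livers and 199.7, 184, 301 and 289 CPM in those of N-LKO mice, with overlap. Serpina7, thyroxine-binding globulin, was 129.6, 43.0 and 117 CPM in WT WD liver, 248, 234 and 221 CPM in N-LKO WD liver and 205, 38.3 and 34.0 CPM in tumor. N-LKO liver lay above both other groups, with a log2 fold change of 1.28 against WT liver (adjusted p = 0.441) and of -1.34 for tumor against N-LKO liver (adjusted p = 0.3004). Without tumor replicate 1, the highest tumor library, the latter was -2.70 (adjusted p = 0.00485). In HFD livers it was 125.6, 125, 68.9 and 59.8 CPM in the WT livers and 103, 56.5, 130.1 and 101.9 CPM in those of N-LKO mice, with overlap. Agt, a serpin-fold gene with another name that encodes angiotensinogen, passed only between tumor and WT liver among the 4 comparisons (log2 fold change -0.97 ± 0.22 SE, adjusted p = 0.0201). The Agt call is given for the main fit only.

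Serpina12 and Serpinf1 showed the most stable differences of the tumor comparisons. Serpina12 encodes vaspin, a secreted inhibitor best known from adipose tissue. It was 31.5, 18.9 and 23.8 CPM in WT WD liver, 33.4, 23.2 and 36.7 CPM in N-LKO WD liver and 106, 130.3 and 54.5 CPM in tumor. Every tumor library lay above every liver library (3.91-fold higher than in WT liver, log2 fold change 1.97 ± 0.32 SE, adjusted p = 0.00895), and the call held in all 18 alternatives. Against N-LKO liver the log2 fold change was 1.64 ± 0.31 SE, and the adjusted p of 0.0582 became 9.15e-05 in DESeq2, 0.0222 without tumor replicate 1 and 0.0271 without tumor replicate 3. Under HFD it was 46.5, 39.8, 29.1 and 21.5 CPM in the WT livers and 25.4, 10.9, 19.8 and 32.3 CPM in those of N-LKO mice, with overlap (adjusted p = 0.232).

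Serpinf1 encodes pigment epithelium-derived factor, a secreted serpin that inhibits no protease and is known to restrain vessel growth. It was 346, 405 and 309 CPM in WT WD liver, 269, 243 and 251 CPM in N-LKO WD liver and 226, 161.4 and 132 CPM in tumor. The 3 groups did not overlap. Tumor was 2.04-fold lower than WT liver (log2 fold change -1.03 ± 0.20 SE, adjusted p = 0.0144), a call that was lost in 1 of 18 alternatives (adjusted p = 0.0540 without WT replicate 2). N-LKO against WT liver gave -0.47 (adjusted p = 0.389) and tumor against N-LKO liver -0.55 (0.191) on the log2 scale. In HFD livers it was 429.7, 440.4, 517 and 476 CPM in the WT livers and 499.5, 536, 496 and 522 CPM in those of N-LKO mice, overlapping and with a log2 fold change of 0.14. Endothelial markers Pecam1 and Cdh5 were higher in tumor than in WT liver and Clec4g, of the sinusoidal endothelium, was lower, and the summed level of the 6 endothelial markers, none at 0 in a WD library, was 271 to 301 CPM in WT liver and 281 to 331 CPM in tumor. Their part in the Serpinf1 result was not tested.

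Serpine2, protease nexin-1, which also inhibits thrombin, gave the clearest difference between livers. It was 14.6, 18.5, 17.6 and 12.5 CPM in the WT livers on HFD and 3.64, 2.39, 7.06 and 4.47 CPM in those of N-LKO mice, and the lowest WT library was above the highest N-LKO library. This is 3.67-fold lower in N-LKO liver (log2 fold change -1.87 ± 0.26 SE, adjusted p = 0.00749), and the call held in all 16 alternatives with adjusted p-values of 1.23e-09 to 0.0297. The WD values were 10.4, 19.2 and 9.65 CPM in WT liver, 5.43, 8.11 and 7.97 CPM in N-LKO liver and 7.28, 5.06 and 6.56 CPM in tumor. WT liver lay above both other groups. Tumor was lower than WT liver (log2 fold change -1.05 ± 0.29 SE, adjusted p = 0.0378), and the difference of N-LKO from WT liver did not pass (log2 fold change -0.86 ± 0.29 SE, adjusted p = 0.354). Without WT replicate 2 the tumor value was -0.67 (adjusted p = 0.126), and the call was also lost without WT replicate 1, N-LKO replicate 2 or 3 or tumor replicate 2 or 3 (0.0539 to 0.0928). None of its 75-base or 45-base windows occurs in another gene. Markers of Kupffer cells and macrophages moved the same way: 3 of 6 (Clec4f, Timd4 and Vsig4) were lower in N-LKO liver under HFD, none was at 0 in a library, and their summed level was 73.0 to 98.2 CPM in WT and 36.1 to 74.5 CPM in knockout HFD liver. The endothelial sum was 101.8 to 121 CPM in WT and 69.8 to 107 CPM in knockout HFD liver, with 1 of 6 markers lower (Stab2). The cholangiocyte sum was 20.4 to 38.4 CPM in WT and 54.4 to 99.3 CPM in knockout HFD liver (Spp1 passed, Krt19 at 0 in 1 library). Most of that sum was Spp1, and Krt19, Krt7 and Epcam reached at most 0.712, 0.493 and 1.85 CPM. The stellate cell sum was 136 to 217 and 175.4 to 251 CPM. Their part in the Serpine2 and Serpina3k results was not tested.

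Serpini1, neuroserpin, an inhibitor of tissue plasminogen activator, was 0.274, 0.0678 and 0.775 CPM in WT WD liver, 0.880, 0.853 and 0.744 CPM in N-LKO WD liver and 1.05, 2.35 and 1.14 CPM in tumor (log2 fold change 1.98 ± 0.61 SE, adjusted p = 0.0539 for tumor against WT liver). Tumor did not overlap either liver group, at a level near the membership minimum.

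The collagen chaperone Serpinh1 was 6.24, 8.40, 4.22 and 3.76 CPM in the WT livers on HFD and 7.36, 7.32, 7.60 and 6.79 CPM in those of N-LKO mice, with overlap. In the WD samples it was 20.2, 15.6 and 20.8 CPM in WT liver, 29.04, 27.9 and 23.3 CPM in N-LKO liver and 33.3, 28.0 and 20.8 CPM in tumor. WT liver lay below N-LKO liver, while its highest library (20.79 CPM) nearly met the lowest of tumor (20.82 CPM). Neither comparison with WT liver passed (adjusted p = 0.375 for N-LKO liver and 0.0829 for tumor). Of its collagen clients, 14 genes, 1 passed under HFD (Col6a2, higher in N-LKO liver), against 4.84% of all genes. At an unadjusted p under 0.05, 7 were higher and 1 lower there, against 11.2% higher and 11.5% lower of all genes. The list median was 0.60 on the log2 scale. Under WD 0 passed between N-LKO and WT liver in edgeR (3 higher and 1 lower at an unadjusted p under 0.05). Between tumor and WT liver 4 passed, all higher, against 14.9% of all genes (8.08% higher). The 4 were Col15a1 (log2 fold change 2.16 ± 0.19 SE, adjusted p = 0.00124), the basement membrane collagens Col4a1 and Col4a2 (log2 fold changes 1.27 and 1.42) and Col5a2 (1.49). These collagen calls are given for the main fit only. The summed level of 8 stellate cell and fibroblast markers, none at 0, was 274 to 537 CPM in WT WD liver, 540 to 627 CPM in N-LKO WD liver and 398 to 632 CPM in tumor. Their part in the Serpinh1 values was not tested.

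Among the intracellular clade B genes, 3 passed between tumor and WT liver, all higher in tumor. None passed in edgeR between N-LKO and WT liver on either diet, where DESeq2 called Serpinb6b under WD. Serpinb9, an inhibitor of granzyme B that protects cytotoxic lymphocytes and their targets, was 15.2, 9.35 and 14.1 CPM in WT WD liver, 22.0, 20.1 and 25.1 CPM in N-LKO WD liver and 21.1, 26.9 and 23.2 CPM in tumor. WT liver lay below both other groups, which overlapped. Against WT liver tumor gave a log2 fold change 0.88 ± 0.19 SE, adjusted p = 0.0187, and N-LKO liver a log2 fold change 0.80 ± 0.19 SE, adjusted p = 0.353. The tumor call was lost without WT replicate 2 (adjusted p = 0.0583) or tumor replicate 2 (0.0531) and in a fit of only the 2 groups compared (0.0612). Under HFD it was 13.9, 8.97, 11.4 and 8.13 CPM in the WT livers and 13.6, 9.70, 14.7 and 10.1 CPM in those of N-LKO mice, with overlap.

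Serpinb6b, a murine relative of the cathepsin G inhibitor SERPINB6, was 7.75, 1.97 and 6.43 CPM in WT WD liver, 11.6, 14.1 and 30.8 CPM in N-LKO WD liver and 13.8, 27.1 and 18.01 CPM in tumor. N-LKO liver and tumor both lay above WT liver and overlapped each other. Tumor gave a log2 fold change 1.87 ± 0.50 SE, adjusted p = 0.0347 against WT liver, and N-LKO liver a log2 fold change 1.80 ± 0.50 SE, adjusted p = 0.353, where DESeq2 gave an adjusted p of 0.0360. Without WT replicate 2, whose level was 1.97 CPM, the tumor value was 1.47 (adjusted p = 0.0967). The call was also lost without WT replicate 1 or 3 or tumor replicate 2 or 3 (0.0551 to 0.0963). In HFD livers it was 2.91, 2.58, 1.55 and 2.13 CPM in the WT livers and 4.05, 3.37, 2.497 and 3.03 CPM in those of N-LKO mice, with overlap.

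Serpinb6a, the closest mouse counterpart of SERPINB6, was 25.7, 16.8 and 23.5 CPM in WT WD liver, 26.9, 26.1 and 35.0 CPM in N-LKO WD liver and 42.5, 58.7 and 27.8 CPM in tumor. WT liver lay below both other groups, which overlapped, and the tumor difference passed (log2 fold change 0.97 ± 0.26 SE, adjusted p = 0.0366). The call was lost in 10 of 18 alternatives, among them leaving out any of 7 WD libraries (adjusted p = 0.0539 to 0.133, the highest without WT replicate 2), the exceptions being tumor replicates 1 and 3. The sum of the Serpinb6 genes gave the same direction (log2 fold change 1.20 ± 0.30 SE, adjusted p = 0.0285), as did the sum of the Serpinb9 genes (log2 fold change 0.89 ± 0.21 SE, adjusted p = 0.0228). At 75 bases, 6.78% of the Serpinb6a windows and none of the Serpinb6b and Serpinb9 windows occur in another gene.

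Serpinb1a, an inhibitor of the granule proteases of neutrophils, was 10.7, 5.76 and 24.4 CPM in WT WD liver, 8.995, 6.07 and 9.56 CPM in N-LKO WD liver and 13.7, 68.2 and 32.2 CPM in tumor. Tumor lay above N-LKO liver and overlapped WT liver. Against N-LKO liver tumor gave a log2 fold change 2.21 ± 0.60 SE, adjusted p = 0.109, and the adjusted p was 0.0364 in DESeq2 and 0.0140 without tumor replicate 1. Without tumor replicate 2 the log2 fold change was 1.48 (adjusted p = 0.283). Under HFD it was 14.2, 7.44, 15.4 and 8.44 CPM in the WT livers and 17.03, 18.4, 12.2 and 16.8 CPM in those of N-LKO mice, with overlap. Serpinb8, an inhibitor of furin, was at 3.05 to 7.98 CPM in HFD livers, 6.02 to 8.70 CPM in WD livers and 9.37 to 12.1 CPM in tumor, where all 3 libraries were above all WD livers (adjusted p = 0.198 and 0.206 against N-LKO and WT liver). Serpinb9f, of whose 75-base windows 65.5% occur in other genes, was 0.411, 0 and 0.179 CPM in WT WD liver, 0.147, 0.0948 and 1.22 CPM in N-LKO WD liver and 0.853, 0.799 and 0 CPM in tumor.

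Under WD the summed markers of lymphocytes were higher in N-LKO liver and tumor than in WT liver, but not so under HFD. There the sum of 5 T and NK cell markers was 1.73 to 3.33 CPM in WT and 1.41 to 2.23 CPM in N-LKO liver. The summed level of 6 T and NK cell markers was 2.81 to 3.87 CPM in WT WD liver, 4.64 to 5.93 CPM in N-LKO WD liver and 7.44 to 10.9 CPM in tumor. Of 5 tested, 2 (Cd3g and Cd4) passed between tumor and WT liver, both higher, and none of the 6 was at 0 in a WD library. Between N-LKO and WT liver 0 of the 5 passed in edgeR, with 1 higher at an unadjusted p under 0.05. Cd4 reached 5.64 CPM in a WD library, and the other markers at most 2.06 CPM (Cd8a). Over WT WD liver, N-LKO WD liver and tumor the sum of 5 neutrophil markers was 8.28 to 9.74, 7.43 to 11.4 and 6.77 to 11.04 CPM, with Mpo at 0 in 1 of 9 WD libraries, and 0 of 4 tested passed in edgeR, also at an unadjusted p under 0.05. Kupffer cell and macrophage markers summed to 260 to 349, 230 to 285 and 94.7 to 248 CPM. The cholangiocyte sum was 17.2 to 69.5, 114.5 to 151 and 195 to 522 CPM, of which Spp1 and Sox9 passed between tumor and WT liver, both higher. Spp1 (up to 489 CPM) and Sox9 (up to 62.0 CPM) made up most of it. Krt19, Krt7 and Epcam reached at most 1.20, 1.04 and 3.36 CPM in a WD library. Between tumor and N-LKO liver the median log2 fold change of the 5 markers was -0.65, and Sox9 alone passed, higher in tumor. The part of any of these cells in the clade B results was not tested. Of the target proteases of these serpins, Gzmb, granzyme B, was at 0.206 to 0.782 CPM in WD samples, and Elane, neutrophil elastase, was at 0 in 4 of 9 WD libraries and at most at 0.238 CPM.

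The remaining member, Serpina11, was at 19.4 to 38.2 CPM in HFD livers and 16.8 to 64.7 CPM in WD samples, the highest in WT WD replicate 2, and passed in no comparison. In all, 43.4% of its 75-base windows occur in another annotated transcript.

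The proteases that serpins inhibit, with their cofactors and receptors, were examined as a list of 35 genes. Under HFD, 28 were tested and 2 passed, against 4.84% of all genes. Prss8, a membrane serine protease, was higher in N-LKO liver (log2 fold change 1.32 ± 0.33 SE, adjusted p = 0.0466), and Proz, protein Z, the cofactor of Serpina10, was lower (log2 fold change -0.34 ± 0.07 SE, adjusted p = 0.0295). Under WD, 0 of 32 passed in edgeR between N-LKO and WT liver (2 higher and 13 lower unadjusted) and 0 between tumor and N-LKO liver (4 higher and 1 lower unadjusted). Between tumor and WT liver 9 of 32 passed, 3 higher and 6 lower, with a list median of -0.38. Of all genes 14.9% passed there, 8.08% higher and 6.8% lower. That is 2653 genes, against 569 without WT WD replicate 2 and 705 in a fit of only the 2 groups compared. Calls of listed genes between tumor and WT liver, in this list and the others, are given for the main fit only. Higher were Plat, tissue plasminogen activator, at 2.01 CPM in WT liver and 10.3 CPM in tumor (log2 fold change 2.35 ± 0.52 SE, adjusted p = 0.0202), and the membrane proteases Prss8 (log2 fold change 3.04) and St14 (2.24). Lower were thrombin, F2, at 1245 CPM in WT liver and 662 CPM in tumor (log2 fold change -0.91 ± 0.20 SE, adjusted p = 0.0191), factor XII, F12 (-1.07), protein C, Proc (-0.58), the complement proteases Masp1 and Masp2 (-0.68 and -0.76) and Lrp1 (-0.83), the receptor that clears serpin complexes with proteases.

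Calls among acute phase genes and folding genes of the endoplasmic reticulum stand beside the share of all genes that passed, 4.84% under HFD. Under WD this share was 0% between N-LKO and WT liver, 0.499% between tumor and N-LKO liver and 14.9% between tumor and WT liver. Of 26 acute phase genes, Il1rn alone passed under HFD (higher in N-LKO liver, log2 fold change 0.53). In edgeR 0 passed in the first and second WD comparison (N-LKO against WT liver, 0 higher and 3 lower unadjusted, and tumor against N-LKO liver, 2 higher and 1 lower unadjusted). Between tumor and WT liver 3 passed, Lcn2 and Il1rn higher (1.91 and 0.86) and Cebpb lower (-1.22). Of 21 folding genes, 0 passed in edgeR in any of the 4 comparisons, with 7, 0, 0 and 2 lower and none higher at an unadjusted p under 0.05. Of the growth hormone-dependent and sex-biased genes, 18 were tested under HFD and 5 passed, against 4.84% of all genes. Cyp2a4 was higher and Cyp7b1, Hsd3b5, Igfals and Slco1a1 were lower in N-LKO liver. Between tumor and WT liver 6 of 17 passed (14.9% of all genes), Cyp2a4 higher and Cyp7b1, Igf1, Igfals, Mup1 and Socs2 lower.

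A model with an interaction term asked, in the 14 livers, whether the genotype difference of a serpin was the same on both diets. In edgeR 0 of 29 members passed, against 1.62% of 15850 genes (0.587% higher and 1.03% lower). Without adjustment 11 had p under 0.05, 5 higher and 6 lower (20% of all genes, 9.18% higher and 10.8% lower), and DESeq2 and limma-voom called 1 each. The lowest p belonged to Serpinf1, whose log2 fold change was 0.14 under HFD and -0.47 under WD, a difference of -0.59 ± 0.14 SE (adjusted p = 0.0521). This was under the threshold without WT HFD replicate 3 (0.0427) or WT WD replicate 3 (0.0348). Serpina1d and Serpinf2 came next (differences of -0.67 and -0.66, adjusted p = 0.154 and 0.155). With a library left out, the difference was -0.84 to -0.35 for Serpina1d and -0.78 to -0.40 for Serpinf2. For Serpine2 the effect was -1.87 under HFD and -0.86 under WD, with an adjusted p of the difference of 0.174. Diet and sequencing table cannot be told apart, so levels were not compared across diets.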

How the data were processed

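RNA was extracted from whole liver or tumor tissue, depleted of ribosomal RNA and sequenced by the authors. The deposited tables, 1 per diet, hold estimated counts per gene, which the authors' software (Partek) divided among genes by expectation-maximization, so values need not be whole. The submitters' processing notes name STAR and mm9, the study's methods name TopHat2. Gene positions in the tables matched GRCm38 (GENCODE M21: same chromosome and start for 97.2% of HFD and 96.8% of WD genes), which is used for the coordinates. Reads of 75 and of 45 bases are both stated, so shared windows were counted at both lengths.

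Counts were rounded and tested with edgeR 4.0.16 (quasi-likelihood F test, TMM scaling, filterByExpr, Benjamini-Hochberg adjustment over all genes tested, threshold 0.05) in R 4.3.3. The HFD groups were fitted alone, the 3 WD groups in one fit, and the interaction over 14 livers. The SE was taken from the F statistic and is approximate. The counts of near-identical paralogs were also added up and tested as 1 gene, and the Serpina3 sum includes Serpina3h. CPM are scaled by TMM factors (0.942 to 1.05 under HFD, 0.806 to 1.15 under WD). Total counts of 9096110 to 20200618 per library set the precision at low levels. No 2 libraries of a group agreed within sampling noise (chi-square per degree of freedom 7.99 to 103 over 21 pairs). The scripts were tested on simulated data with the same spread for every gene and no outlying library. This checks the code and not how well the tests suit these libraries. Alternatives were DESeq2 1.42.0, limma-voom (limma 3.58.1), other scalings and filters, an offset for transcript length and GC content, the replicate number as a block, only the groups compared, another membership minimum and leaving out each library. Gene lists were counted in edgeR alone.

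Members and gene lists were chosen with earlier results of these data known. Every member may be named. Values per library are given for members past the threshold and for those with the lowest p, the paralogs and the plasma inhibitors, and other list genes are named where they passed. Gzmb, Elane and the genes just below the minimum were named after their values were seen. Promoter sequences were found for 25 of 32 members. Of the members, 1 is counted among the 32 but its values are not reported here.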

Additional observations from a re-analysis of the deposited data

Results flagged for a closer look

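Over 68 groups of 4 libraries, a single library stood far from the others of its group in 3 cases, and chance gives about 1 in 20 groups. The Serpina1 sum of WT HFD replicate 1 was 16954.8 CPM, against 21773.8 to 22181.8 CPM in the other WT HFD livers. Serpinb8 was 3.05 CPM in WT HFD replicate 4, against 4.05 to 4.22 CPM. Serpinf2 was 380.2 CPM in N-LKO HFD replicate 1, against 459.6 to 466.9 CPM. The WD groups hold 3 libraries each and were not examined in this way.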

How the results depend on the processing

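Under HFD, 2 members passed, and 1 to 2 when a library was left out (Serpina3k is lost without WT replicate 2, 3 or 4 or N-LKO replicate 1 or 4). Between N-LKO and WT liver under WD the count was 0, and 1 in DESeq2. Between tumor and N-LKO liver it was 0, 3 in DESeq2 and 0 to 5 when a library was left out (5 without tumor replicate 1, 1 without tumor replicate 3). Between tumor and WT liver it was 7, 2 in a fit of only the 2 groups and 1 to 10 when a library was left out (1 without WT WD replicate 2, 10 without tumor replicate 1). For the interaction it was 0, and 1 with a filter at a mean of 1 CPM, in DESeq2, in limma-voom and without WT HFD replicate 3 or WT WD replicate 3, so 0 to 1 when a library was left out.

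The Serpina3 sum under HFD had a log2 fold change of -0.60 with the offset for length and GC content (adjusted p = 0.0616) and -0.70 to -0.51 when a library was left out. Between tumor and N-LKO liver it was -0.996 to 0.03 when a library was left out, with the sign reversed only without tumor replicate 2 (0.0287). The causes were not tested.

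With the replicate number as a block, 3 members passed under HFD (Serpina1c added) and 3 between tumor and WT liver (Serpina12, Serpinb9 and Serpinf1), and 0 in the other comparisons. Deviations of same-numbered libraries correlated at -0.124 to 0.107 over 13 pairs. With so few libraries per group this cannot decide whether the numbers pair the samples. With 3 libraries in a WD group, and levels near 1 CPM for Serpina3i, Serpini1 and Serpinb9f, the tests of these genes are the least precise.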
